A study of Mus musculus with 33 samples.

Results

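The genes Trpm5, Avil, Sh2d6, Dclk1, Pou2f3, Gnat3, Il25, Alox5, Plcb2 and Gnb3 are widely used to mark tuft cells. They were chosen by name, and 10 of 10 were found among the 15273 genes measured. Their levels were read in all 33 libraries of sorted mouse cells, each made by bulk MARS-seq, in which 3′ ends of transcripts are read and molecules are counted by their unique molecular identifiers (UMIs). The study followed Foxn1, the transcription factor of thymic epithelium, and the question here was which of the 10 genes were limited to libraries with a tuft cell profile and which were also found elsewhere or before birth.

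All mice were C57BL/6. Wild-type thymic epithelial cells (TEC) gave 2 libraries at embryonic day 15 (E15), 2 at embryonic day 17 (E17), 6 at postnatal day 6 and 20 at 6 weeks. The day 6 libraries were 2 each of populations titled mTEC1, mTEC2 and mTEC4. The 6-week libraries were titled cTEC, mTEC1, mTEC2, mTEC3 and mTEC4, each with the numbers 189, 191, 195 and 196. Another 3 libraries, labelled HFC, were of cells positive for Foxn1.EGFP, freed by trypsin from shaved back skin at 4 weeks of age. Whether replicate libraries stem from different animals, how cells were gated and whether animals were pooled is not stated in the labels, so p-values measure the spread between these libraries, which may be technical.

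Tuft cells are rare chemosensory epithelial cells of the gut, airway and thymic medulla. They use the signalling chain of taste cells, in which a receptor acts through the G protein subunits gustducin (Gnat3) and Gnb3 on the phospholipase Plcb2, and the calcium released opens the cation channel Trpm5. The transcription factor Pou2f3 is needed for their formation. In the gut they release the cytokine IL-25 and lipid mediators made by 5-lipoxygenase (Alox5) in response to parasites. Avil (advillin) is an actin-binding protein of the villin family, Sh2d6 an adaptor with an SH2 domain, and Dclk1 a kinase related to doublecortin that is also expressed in neurons.

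Since Pou2f3 belongs to the POU family, which binds the octamer ATGCAAAT, start-site windows of the members in RefSeq (GRCm38.p6, 250 bases before to 50 after the start) were searched on both strands for it and for the shorter ATGCAAA, which it contains. There were 8 windows for 7 of the 10 genes. The octamer was in 0 of the 8, and in 1.74% of all 32841 windows of the same length. ATGCAAA was found in the window of Avil, once on each strand, and in none of the other windows, against 4.63% of all windows. The 3 windows shown are those of the channel and the villin-family gene, which were among the genes most limited to a few libraries, and of Dclk1, which was not. Capitals mark ATGCAAA or its reverse complement, and a match is a run of letters, not a known binding site.
Trpm5, chr7:143094593-143094892, minus strand: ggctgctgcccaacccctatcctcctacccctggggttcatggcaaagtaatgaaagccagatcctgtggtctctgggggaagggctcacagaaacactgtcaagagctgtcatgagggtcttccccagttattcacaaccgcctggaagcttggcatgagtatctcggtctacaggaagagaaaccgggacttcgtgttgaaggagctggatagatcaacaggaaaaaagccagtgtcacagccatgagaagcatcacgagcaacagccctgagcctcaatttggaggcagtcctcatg
Avil, chr10:127000459-127000758, plus strand: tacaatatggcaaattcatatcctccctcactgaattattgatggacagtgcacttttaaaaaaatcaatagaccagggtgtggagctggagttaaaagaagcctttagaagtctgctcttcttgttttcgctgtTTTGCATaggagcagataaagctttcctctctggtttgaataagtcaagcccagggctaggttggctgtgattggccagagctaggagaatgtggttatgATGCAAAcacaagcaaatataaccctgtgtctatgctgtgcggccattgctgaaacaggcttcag
Dclk1, chr3:55242114-55242413, plus strand: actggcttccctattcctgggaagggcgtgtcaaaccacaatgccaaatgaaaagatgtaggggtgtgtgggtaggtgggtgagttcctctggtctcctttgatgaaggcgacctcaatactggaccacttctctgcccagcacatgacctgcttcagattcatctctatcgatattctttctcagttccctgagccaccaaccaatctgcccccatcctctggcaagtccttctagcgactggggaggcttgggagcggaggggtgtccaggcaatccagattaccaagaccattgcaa

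Embryonic libraries held 1007370 to 1732688 UMIs and day 6 libraries 287189 to 638343. The range was 98670 to 1369629 for 6-week TEC and 520844 to 679168 for HFC. Levels are given as CPM, UMIs per 1000000 UMIs of the library. Where no UMI was counted, up to 3 are still compatible with the count, which is 1.73 to 30.4 CPM depending on the library, and this limit covers counting error only. The titles of the 6-week libraries did not match their markers, so these libraries were grouped by genes other than the 10. A library was called Prss16-high when Prss16, a protease of cortical TEC, took more than 0.2% of UMIs. Otherwise it was called Krt5-high above 0.25% for the keratin Krt5, Aire-high above 0.1% for the autoimmune regulator Aire, or Pth-high above 0.1% for parathyroid hormone. This gave 4 libraries in each class and 4 remaining libraries, titled cTEC 196, mTEC2 195, mTEC3 195 and mTEC4 195. The classes followed the numbers in the titles. All 4 Krt5-high libraries carried 189 and all 4 Prss16-high ones 196, 3 of the 4 Aire-high carried 191, the Pth-high carried 191 or 195, and 3 of the 4 remaining ones carried 195. What the numbers stand for is not stated, so class and number cannot be fully told apart. At each threshold the nearest libraries were well apart, with 0.345% inside and 0.0469% outside for Prss16, 0.347% and 0.154% for Krt5, 0.20% and 0.0216% for Aire, and 0.389% and 0.0023% for Pth. The remaining libraries were epithelial by Krt8, at 3565 to 5055 CPM, and Epcam, at 375 to 692 CPM, and held Foxn1 at 10.4 to 33.2 CPM.

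At 6 weeks 9 of the 10 genes were higher in each of the 4 remaining libraries than in any of the other 16, and Dclk1 was the exception. Over all genes 5.55% of 13610 met the same condition. Within number 195 the same 9 genes were higher in each of the 3 remaining libraries than in the 2 Pth-high ones. Within 196 all 10 were higher in the 1 remaining library than in the 4 Prss16-high ones. The share of all genes that met these looser conditions was not counted, so the counts within numbers are a description only. The classes were set by other markers with earlier results of these data known, so the levels are described without a test. With each class threshold doubled, 10 libraries were left in the remaining class and 0 members met the condition. The doubled Krt5 threshold lay above the highest Krt5 level of these libraries, 0.388%, so all 4 Krt5-high libraries moved into the remaining class. That 0 thus followed from the setting. In bulk samples fewer cells of a type and less RNA per cell cannot be told apart.

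**Figure D1:**
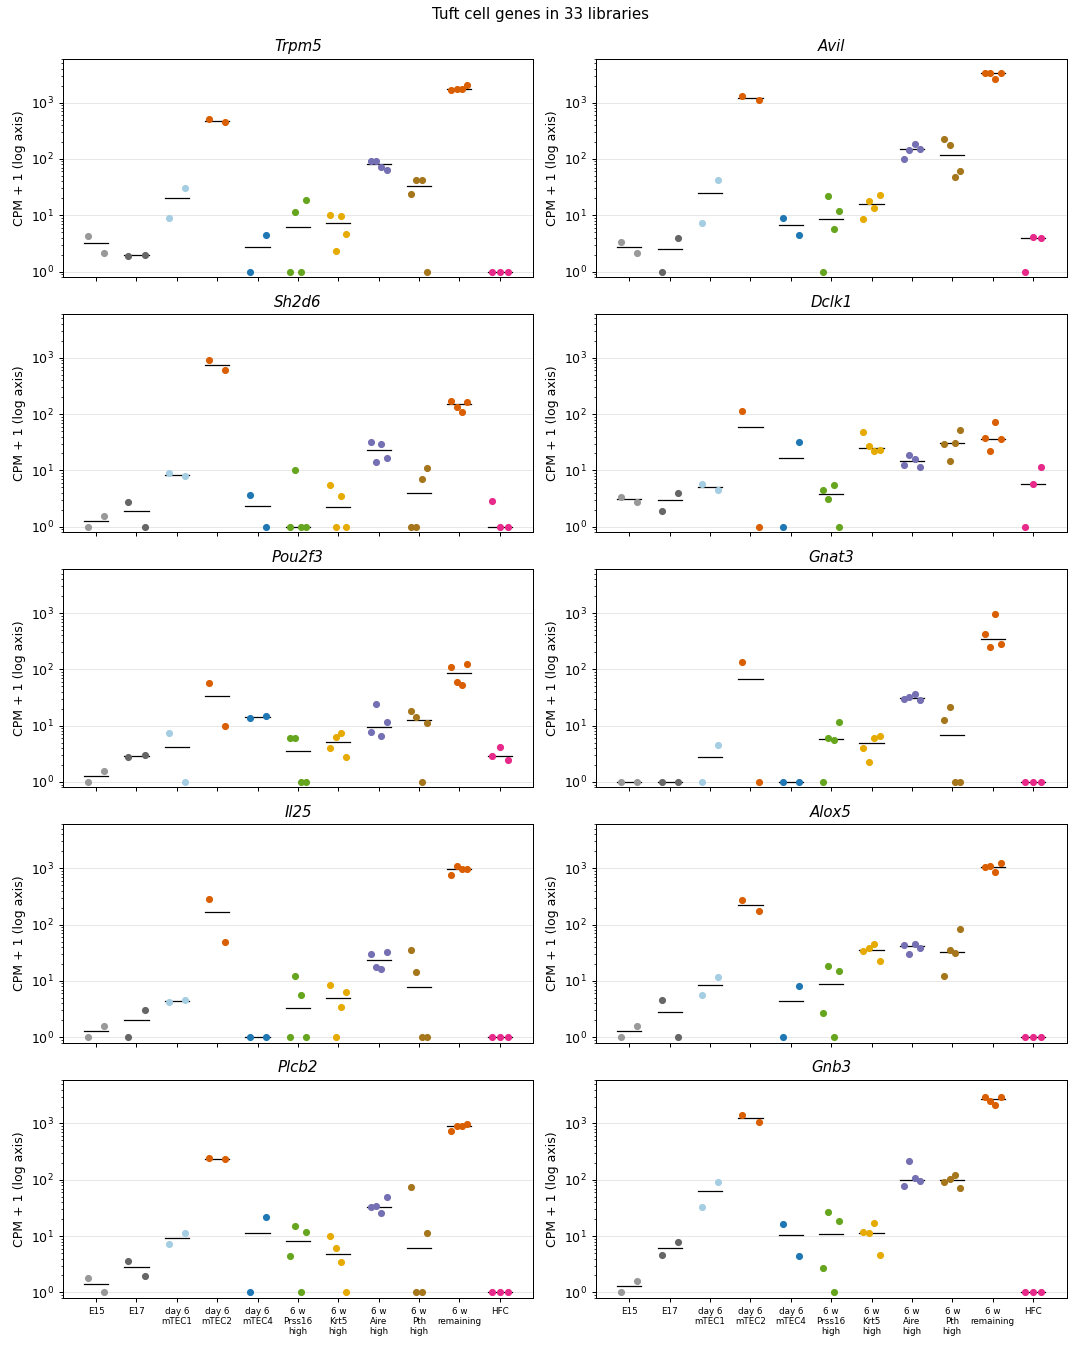
Level of each of the 10 genes in each of 33 libraries (points; CPM + 1, log axis), by age, title or 6-week marker class, with the group median as a line. The 4 remaining 6-week libraries stand above all other 6-week libraries for every gene but Dclk1, and both day 6 libraries titled mTEC2 stand above the other 4 of that age for 7 genes.

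Among the signalling genes, Trpm5 (chr7:143069153-143094642, minus strand, GENCODE M21 on GRCm38, as for all genes below) was at 1689, 1725, 1769 and 2026 CPM in the 4 remaining libraries. The mean was 1802 ± 153 CPM (SD, n = 4), against 29.3 ± 32.5 CPM in the other 16, a ratio of 61.5. The highest of the 16 was 90.2 CPM in cTEC 191, an Aire-high library, so the lowest remaining library was 18.7 times as high.

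Gnb3 (chr6:124834240-124840275, minus strand), the G protein beta subunit, was at 2107, 2483, 2921 and 2987 CPM in the remaining libraries and between 0 and 216 CPM in the other 16. Plcb2 (chr2:118707517-118728438, minus strand), the phospholipase, was at 728, 886, 901 and 972 CPM in the remaining libraries, and its highest level elsewhere at 6 weeks was 74.3 CPM in mTEC3 191, a Pth-high library. Both were separated by nearly the same margin, with the lowest remaining library 9.74 times the highest other for Gnb3 and 9.80 times for Plcb2.

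Gnat3 (chr5:17962549-18019834, plus strand), the alpha subunit gustducin, was the member that differed most among the remaining libraries. It was at 246 CPM in mTEC3 195, 284 in cTEC 196, 417 in mTEC2 195 and 975.5 in mTEC4 195, and at 0 to 36.0 CPM in the other 16. The library with the highest Gnat3 was not the highest for Trpm5, Gnb3 or Plcb2. Among other taste signalling genes, singled out after their values were seen, the bitter receptor Tas2r105 was at 143 CPM in mTEC4 195 and 7.77 to 15.6 CPM in the other 3. Rgs13, a regulator of G protein signalling, was at 819 CPM there and 44.0 to 109 CPM in the others, and Rgs21 at 29.8 CPM and 1.95 to 5.18 CPM. The bitter receptor Tas2r131 was at 25.3 CPM there and at 0 in the other 3. By contrast, the savoury receptor subunit Tas1r1 was at 86.4 CPM there, within the 55.8 to 91.9 CPM of the others. The G protein gamma subunit Gng13 was at 3574 CPM there, within 3404 to 4183.

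The effector genes were also lower outside the remaining libraries, but not to the same degree in each class. Il25 (chr14:54932695-54935837, plus strand) was at 759, 969, 972 and 1101 CPM in the remaining libraries and had the widest gap of the 10, with a lowest remaining level 22.1 times the highest of the other 16. Its mean there was 950 ± 141 CPM (SD, n = 4), against 10.6 ± 11.7 CPM in the other 16, a ratio of 89.3.

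Alox5 (chr6:116410077-116461178, minus strand) was at 868, 1034, 1095 and 1256 CPM in the remaining libraries. Outside them it was lower but widely present. The 4 Krt5-high libraries were at 21.9 to 43.9 CPM, the 4 Aire-high ones at 29.5 to 43.6 and the Pth-high ones at 11.4 to 81.1. In the Krt5-high libraries the other signalling genes and Il25 had medians of at most 1.1% of their median in the remaining libraries, and Alox5 had 3.3%. Alox5 is also made by myeloid cells. The summed level of 12 myeloid markers was 314 to 679 CPM in the Krt5-high libraries, 2686 to 3460 in the Aire-high, 1314 to 1530 in the Pth-high, 50.5 to 203 in the Prss16-high and 793 to 1061 in the remaining libraries. The part of such cells in the level of Alox5 was not tested.

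Pou2f3 (chr9:43123939-43210369, minus strand), the regulator, formed pairs in the remaining libraries, at 52.1, 58.6, 111 and 122 CPM. The highest other 6-week library, cTEC 191 of the Aire-high class, was at 23.0 CPM, so the gap was 2.27 times. The median of the Pth-high libraries was 13.9% and that of the Aire-high 10.2% of the remaining median. The Pth-high figure rests on 6 UMIs in all, against 35 in the Aire-high libraries. Pooled over the libraries of a class, the levels were 10.2 CPM in Pth-high and 10.5 CPM in Aire-high, so these classes are not ranked.

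Avil (chr10:127000709-127020994, plus strand) was at 2637, 3298, 3306 and 3393 CPM in the remaining libraries, with mTEC4 195 the lowest. In the other 16 it went from 0 to 223 CPM, the highest being mTEC3 191 of the Pth-high class. The 3′ end of Avil is covered by Tsfm on the other strand, and whether the counting used strand is not given in the sources used here. Tsfm was at 20.7 to 42.5 CPM in the remaining libraries and 20.7 to 80.9 over all 33, and Avil was at 0 to 2.98 CPM in the embryonic libraries, where Tsfm was at 42.4 to 80.9. Trpm5 likewise overlaps Tssc4, on the other strand and away from the 3′ end of Trpm5, and Tssc4 was at 5.18 to 10.6 CPM in the remaining libraries.

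Sh2d6 (chr6:72513641-72521707, minus strand) was at 109, 133, 165 and 168 CPM in the remaining libraries. The Aire-high libraries came next, at 13.1 to 31.4 CPM, which put the median of that class at 14.8% of the remaining median. Among Prss16-high libraries it was at 0 in 3 of 4.

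Dclk1 (chr3:55242364-55539068, plus strand) behaved unlike the other 9. It was at 21.5, 34.5, 36.3 and 71.5 CPM in the remaining libraries. The Krt5-high libraries were at 21.3, 21.9, 26.2 and 46.9 CPM and the Pth-high at 13.5, 28.6, 29.7 and 50.7 CPM, so all 3 classes overlapped. The Pth-high levels rest on only 17 UMIs in all, 2 to 5 per library, against 80 UMIs in the Krt5-high libraries. The Aire-high libraries, at 10.7 to 18.0 CPM, and the Prss16-high, at 0 to 4.59 CPM, were below each remaining library. The mean was 40.9 ± 21.4 CPM (SD, n = 4) in the remaining libraries and 19.0 ± 14.9 CPM in the other 16, a ratio of 2.15, where the other 9 genes had ratios of 12.2 to 89.3.

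**Figure D2:**
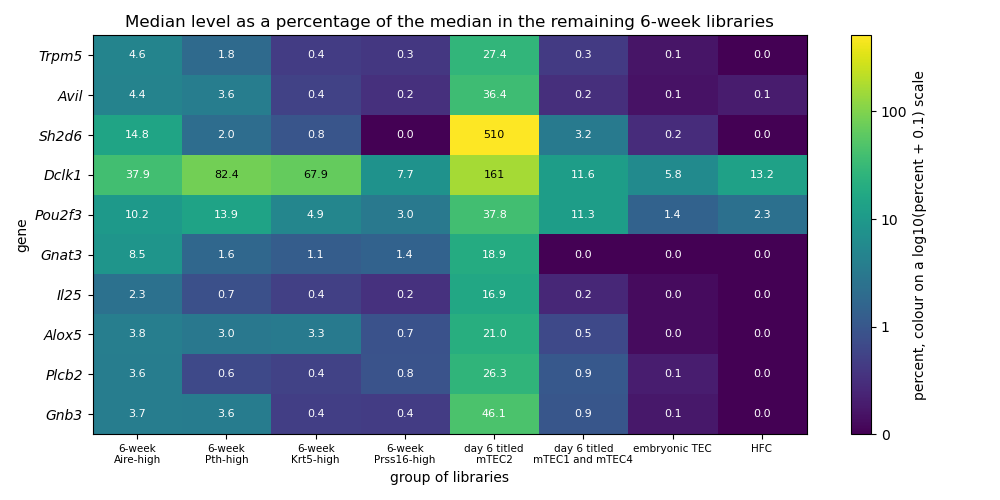
Median level of each gene (rows) in each group of libraries (columns) as a percentage of its median in the 4 remaining 6-week libraries, with colour on a log scale. Dclk1 keeps 67.9% in Krt5-high libraries and 82.4% in Pth-high ones, the latter from only 17 UMIs in all. Sh2d6 reaches 510% in the day 6 libraries titled mTEC2.

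Low levels of the other 9 genes were seen in every Aire-high library. None of the 4 was at 0 for any of the 10 genes, and their medians were 2.3% (Il25) to 14.8% (Sh2d6) of the remaining medians for the 9. Trpm5, for example, was at 62.0 to 90.2 CPM and Gnat3 at 27.4 to 36.0 CPM in these libraries. Pth-high libraries had medians of 0.6% to 13.9%, Krt5-high 0.4% to 4.9% and Prss16-high 0% to 3.0%. Depth differed, with 527768 to 1369629 UMIs in Aire-high, 547545 to 797340 in Krt5-high and 217794 to 970628 in Prss16-high libraries. Pth-high libraries held only 98670 to 175014, so a 0 there is compatible with up to 17.1 to 30.4 CPM. Zeros therefore cannot be compared evenly between the classes. Summed over the 10 genes, levels were 443 to 613 CPM in the Aire-high, 274 to 514 in the Pth-high, 85.8 to 135 in the Krt5-high, 15.4 to 122 in the Prss16-high and 10416 to 12144 in the remaining libraries.

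Lists of other tuft cell genes followed the same libraries. Of 52 such genes tested, 34 were higher in each remaining library than in any of the other 16. In the taste signalling list this held for 8 of 11, with Gng13 at a median of 3569 CPM in the remaining libraries against 94.4 in the other 16 and the receptor subunit Tas1r3 at 34.0 against 0. Among effectors and cytokine receptors it held for 6 of 12. These include Alox5ap, which presents arachidonic acid to 5-lipoxygenase (726 against 14.8 CPM), the leukotriene synthase Ltc4s (1280 against 53.2) and Chat, which makes acetylcholine (74.4 against 0). The interleukin-25 receptor gene Il17rb was at 104 against 4.40 CPM. Il13ra1, a receptor subunit for interleukin-13, was not among them, at 24.3 against 61.7 CPM.

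Among regulators 6 of 9 met the condition, Gfi1b (115 against 6.22 CPM) and Sox9 (284 against 32.3) among them. Spib, a factor also used by microfold cells, did not, at 746 against 464 CPM. For structural genes and adaptors it was 14 of 20, with the endoplasmic reticulum protein gene Lrmp at 4153 against 60.7 CPM and the kinase gene Bmx at 837 against 9.32. Ptprc, which encodes the leukocyte protein CD45 and has been found on thymic tuft cells, was at 15.7 against 14.3 CPM. Lists of other cell types had 0 genes that met the condition, except Cd79b among 5 B cell genes and Tek among 8 endothelial genes.

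**Figure D3:**
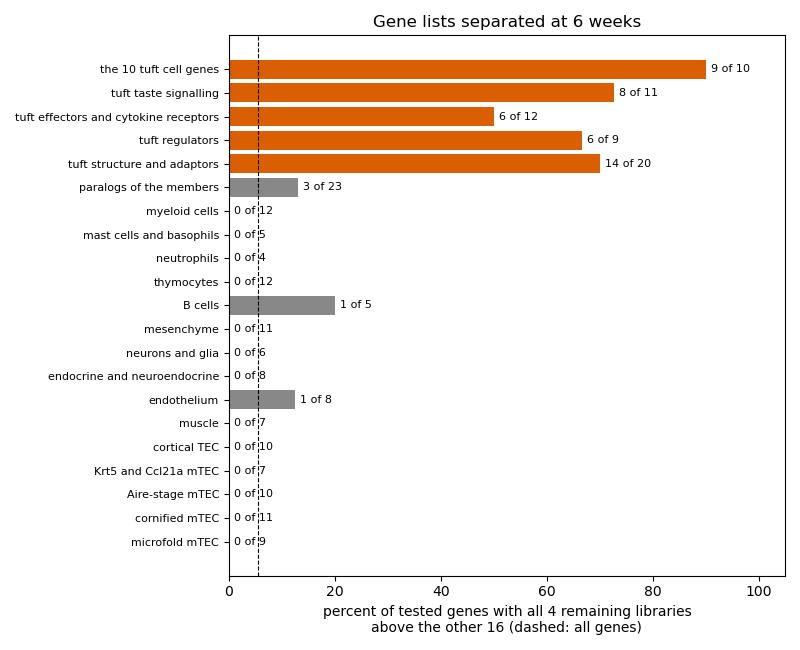
Percentage of the tested genes of each list whose 4 remaining 6-week libraries are all above the other 16, with counts beside the bars (orange, tuft cell lists; grey, other lists) and all genes as a dashed line at 5.55%. The 10 tuft cell genes stand at 9 of 10 and the myeloid, thymocyte and mesenchyme lists at 0.

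Of 23 paralogs of the 10 genes tested, 3 met the 6-week condition, which 5.55% of all genes met. They were the octamer factor gene Pou2f1 (44.3 against 20.4 CPM), the beta subunit gene Gnb2 (1053 against 375) and the inhibitory alpha subunit gene Gnai2 (1878 against 927), which is also in the taste signalling list. The 12- and 15-lipoxygenase genes went the other way from Alox5 in level. Alox12e had a median of 128 CPM in the remaining libraries and 517 in the other 16, and Alox15 39.4 and 193 CPM. Gnb1 was at 125 against 77.5 CPM, Plcb3 at 45.3 against 14.8, Plcb4 at 63.0 against 61.1 and Trpm4, a channel related to Trpm5, at 39.2 against 20.2. Dclk2 was low in both, at 7.80 and 3.94 CPM.

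Over all 33 libraries, which differ in age, tissue and depth, the genes most like the members in log2 level were named by Pearson's r, as a description. For Trpm5 these were Pik3cg (0.96), Art5 (0.96) and Cdhr2 (0.95), and for Avil Gng13 (0.97), Car7 (0.96) and Hap1 (0.95). Gnb3 was closest to Lrmp (0.97), Atp2a3 (0.97) and Gng13 (0.97), Alox5 to Hap1 (0.95), Fxyd6 (0.95) and Gng13 (0.94), and Il25 to Pik3cg (0.94), Cd300lf (0.94) and Il10 (0.94). Plcb2 was closest to Zpld2 (0.91), Ptpn6 (0.91) and Pik3r5 (0.91), Gnat3 to Pcdh20 (0.92) and Mctp1 (0.91), and Pou2f3 to Srpx2 (0.89), Abcc3 (0.88) and Fyb (0.88). Sh2d6 was closest to Sh2d7 (0.92), Myrfl (0.91) and Syt5 (0.88). Dclk1 had lower values, with Cd24a (0.81), Anxa4 (0.76) and Fbp2 (0.74).

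The titles of the 6-week libraries did not follow the marker classes, and each title held libraries of 4 classes. Each of 3 mTEC titles and the cTEC title held 1 remaining library and mTEC1 held 0. A limma F test over the 5 titles, adjusted by Benjamini-Hochberg, called 0 of 10 members and 0% of 13610 genes, with an adjusted p above 0.999 for each member. Without adjustment 70 genes were below 0.05, and edgeR and DESeq2 also called 0 genes. Differences between classes widen the spread within each title, so these counts cannot show whether title matters for the members.

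At day 6 the same genes were high in the 2 libraries titled mTEC2. Trpm5 was at 505 and 451 CPM there, and at 7.83, 29.8, 0 and 3.48 CPM in the titled mTEC1 and mTEC4 libraries. Sh2d6 was at 908 and 610 CPM against 7.83, 7.01, 2.59 and 0. Gnb3 was at 1416 and 1076 CPM against 31.3, 91.2, 15.6 and 3.48. Both mTEC2 libraries were above the other 4 for 7 genes, and 13.4% of all genes met that condition. The 3 genes that did not were Dclk1, Pou2f3 and Gnat3.

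In the limma fit on log2(normalized UMI + 1), 7 of the 9 members tested rose in titled mTEC2 against titled mTEC1 and mTEC4, where 4.38% of 11472 genes rose. Of the 9, 6 passed the filter on low values only through the titled mTEC2 libraries, with fewer than 2 others at 5 normalized UMIs. These were Trpm5, Avil, Sh2d6, Dclk1, Il25 and Alox5, so the count describes the tested genes and is not read against the share of all genes. The median log2 difference of all genes was -0.00. Sh2d6 rose by 7.21 ± 0.64 (SE, limma adjusted p = 0.000388), Avil by 6.71 ± 0.74 (limma adjusted p = 0.00089) and Trpm5 by 6.04 ± 0.70 (limma adjusted p = 0.00113). Gnb3 rose by 5.75, Il25 by 5.31, Alox5 by 5.21 and Plcb2 by 4.90, the last with the largest limma adjusted p of these, 0.0101. For Pou2f3 the difference was 1.71 ± 0.84 (limma adjusted p = 0.233) and for Dclk1 1.10 ± 1.51 (limma adjusted p = 0.698). Gnat3 reached 5 normalized UMIs in fewer than 2 of these libraries and was not tested. Of all called genes 55.6% were higher, and 44.5% with TMM scaling, which put the median of all genes at -0.13.

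**Figure D4:**
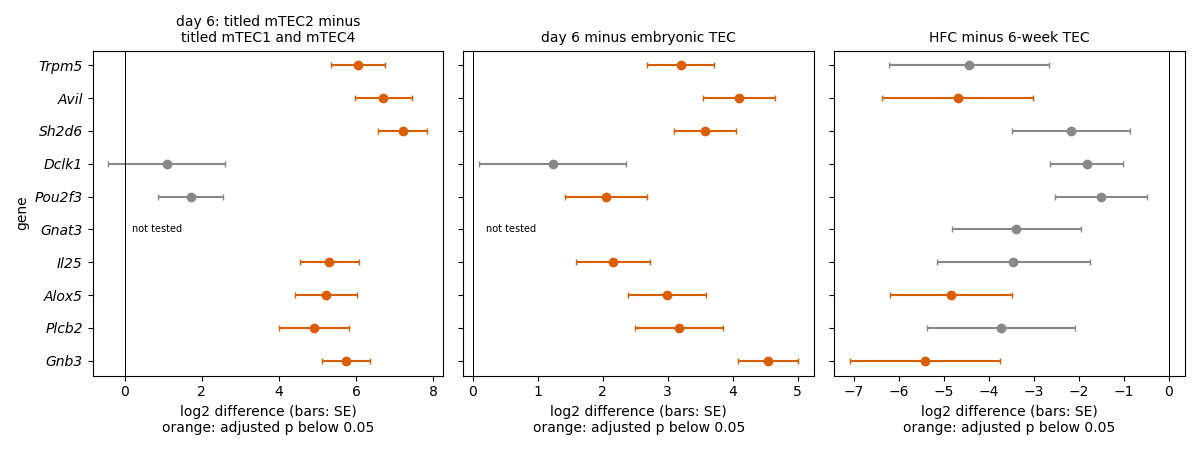
Difference in log2(normalized UMI + 1) of each gene (rows) in 3 comparisons, with the standard error from limma as bars and an adjusted p below 0.05 in orange. At day 6 the 7 called genes lie between 4.90 and 7.21, and in HFC the 3 called genes lie between -4.69 and -5.42.

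The 2 libraries titled mTEC2 were unlike each other for 4 of the genes. Dclk1 had 37 UMIs in the first, or 114 CPM, and 0 in the second, and Gnat3 had 43 UMIs, or 132 CPM, and 0. Against a limit of 3 UMIs in the second library the first was at least 12.7-fold higher for Dclk1 and at least 14.8-fold higher for Gnat3. Il25 was at 280.0 and 47.8 CPM, a ratio of 5.86, and Pou2f3 had 18 and 3 UMIs. In contrast, Plcb2 was at 240.0 and 230.1 CPM and Trpm5 differed by a ratio of 1.12. Cd24a, the gene most like Dclk1 in level, had 443 UMIs in the first library and 9 in the second. These libraries also held markers of other cells. The summed level of 7 muscle genes was 3764 CPM in the first and 1760 in the second, against 31.3 to 92.4 in the other 4, and 7 of 7 rose. Endothelial genes summed to 899 and 3144 CPM against 138 to 1742, and myeloid genes to 1280 and 867 against 933 to 1148. The part of these cells in the members' levels was not tested.

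Other tuft cell genes that rose in the same comparison were 6 of 7 for taste signalling, 3 of 10 for effectors and cytokine receptors, 4 of 7 for regulators and 11 of 19 for structure and adaptors, with 0 that fell. Those with the smallest limma adjusted p were Ovol3 (log2 difference 5.83), Lrmp (4.58), Gng13 (6.10), Matk (6.14), L1cam (4.65) and Itpr3 (1.75). Of 18 paralogs 4 rose. Of the other tuft cell genes 43 passed the filter at both ages. In this set 30 were higher without overlap in the remaining 6-week libraries and 31 in the day 6 mTEC2 libraries, and 26 in both, where 3.23% of 10773 genes met both conditions. Another 4 that met the 6-week condition did not pass the filter at day 6. Through which libraries these genes passed the filter was not counted. Their counts are therefore a description and are not read against the shares of all genes.

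The proportions of the 10 genes to each other were not the same at the 2 ages. Relative to Trpm5 in the same library, Sh2d6 was 0.063 to 0.0997 in the 4 remaining 6-week libraries and 1.35 and 1.80 in the day 6 libraries titled mTEC2. In the Aire-high libraries it was 0.145 to 0.395. In absolute level Sh2d6 was 0.189 times as high in the remaining libraries as in the day 6 libraries, whereas for Trpm5, Avil, Alox5, Plcb2 and Gnb3 the mean of the remaining libraries was 1.85 to 6.24 times the level in either day 6 library. For 4 genes the ratio turned on which day 6 library was used. It was 3.39 against the first and 19.9 against the second for Il25, and 1.55 and 9.60 for Pou2f3. Against the first library it was 3.63 for Gnat3 and 0.36 for Dclk1, and against the second, where both were at 0, at least 53.6 and at least 4.57. Plcb2 kept its proportion, at 0.431 to 0.522 times Trpm5 at 6 weeks and 0.476 and 0.510 at day 6. Alox5 also overlapped, at 0.503 to 0.620 times Trpm5 at 6 weeks and 0.377 to 0.549 at day 6. Avil did not overlap, at 1.53 to 1.96 times Trpm5 at 6 weeks and 2.47 to 2.55 at day 6. Gnb3 did not either, at 1.22 to 1.77 and 2.38 to 2.80. Age, title and marker class differ together between these libraries, so their parts cannot be told apart, and the difference was not tested.

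**Figure D5:**
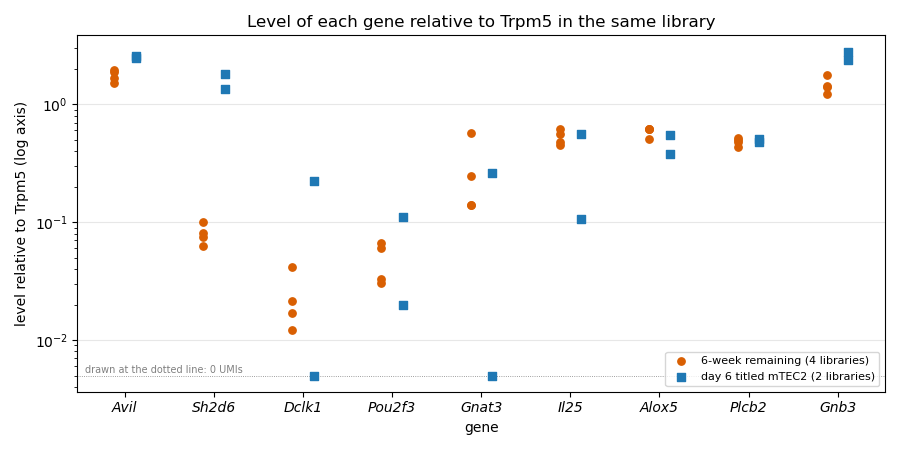
Level of 9 genes divided by that of Trpm5 in the same library (log axis), in the 4 remaining 6-week libraries (circles) and the 2 day 6 libraries titled mTEC2 (squares), with libraries at 0 UMIs on the dotted line. Sh2d6 lies between 0.063 and 0.0997 at 6 weeks and between 1.35 and 1.80 at day 6. Avil and Gnb3 are also higher at day 6 without overlap, while Plcb2 and Alox5 overlap.

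Before birth the 10 genes together had 59 UMIs among 5119771 in the 4 embryonic libraries, 23 at E15 and 36 at E17. Gnat3 had 0 in all 4, which with a limit of 3 UMIs over the group puts the mean of the remaining 6-week libraries at least 820-fold higher. The highest single count was 7 UMIs, Gnb3 in the second E17 library, at 6.95 CPM. Trpm5 was at 3.20 and 1.15 CPM at E15 and 0.884 and 0.993 CPM at E17. Pou2f3 was at 0 and 0.577 CPM at E15 and 1.77 and 1.99 CPM at E17, and Il25 was seen in 2 of the 4, at 0.577 and 1.99 CPM. All these are within a few molecules of 0, and the medians over the 4 libraries were at most 1.38% of the remaining 6-week median for the 9 genes and 5.84% for Dclk1. The libraries were of TEC by Krt8, at 3066 to 5883 CPM, and Foxn1, at 547 to 1065.

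Between E17 and E15 limma called 0 of 9 members, where 0.767% of 11472 genes were called. Each of the 9 was under 5 normalized UMIs in every embryonic library, and all entered the test through the day 6 libraries of the shared fit. The 0 of 9 is therefore not comparable with that share. Without adjustment 1 member was below 0.05, Gnb3, with a log2 difference of 1.75 ± 0.72 (limma adjusted p = 0.758), and edgeR and DESeq2 also called 0. Spib was called among the other tuft cell genes, rising by 1.89 (limma adjusted p = 0.0472).

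From the embryonic to the day 6 libraries 8 of 9 members rose, where 10.3% of 11472 genes rose. As all 9 passed the filter through day 6 libraries alone, their count is a description and is not read against that share. The median log2 difference of all genes was -0.07. Of the called genes 63.7% were higher, and 48.9% with TMM scaling, which put the median of all genes at -0.24. Gnb3 rose by 4.55 ± 0.46 (limma adjusted p = 0.000136), Avil by 4.10 ± 0.55 (limma adjusted p = 0.00068) and Sh2d6 by 3.57 ± 0.48 (limma adjusted p = 0.000655). Trpm5 rose by 3.20, Plcb2 by 3.18, Alox5 by 2.99, Il25 by 2.16 and Pou2f3 by 2.05. Dclk1 had a difference of 1.23 ± 1.13 (limma adjusted p = 0.511). Most of this rested on the 2 libraries titled mTEC2. Without them, an alternative chosen with the data already seen, only 3 members passed the filter on low values and 1 rose, Gnb3 by 2.63 ± 0.55 (limma adjusted p = 0.00887), where 18.0% of genes were called in either direction. Pou2f3 was then at 1.48 (limma adjusted p = 0.102) and Plcb2 at 1.54 (limma adjusted p = 0.187). Pou2f3 at day 6 was at 13.0 and 13.9 CPM in the libraries titled mTEC4, which is above the second mTEC2 library, at 8.97 CPM. These levels rest on 5, 4 and 3 UMIs, so their order is within counting error.

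Some calls in this comparison also turned on the processing or on single libraries. Il25 was not called by edgeR, nor by limma with a filter at a mean of 10 normalized UMIs (limma adjusted p = 0.0515). Pou2f3 was not called with pseudocounts of 0.5 or 5, no filter or robust moderation, at limma adjusted p values of 0.0534 to 0.0690. The limma adjusted p of Pou2f3, 0.0490 in all libraries, was 0.0503 to 0.181 without any one of 8 of the 10 libraries. For Il25, at 0.0280, it was 0.0609 to 0.151 without either E15, either E17 or either day 6 mTEC1 library. Plcb2 went to 0.0535 without the second E15 and 0.0605 without the second E17 library, and Alox5 to 0.0541 without the second E17 library. Marker genes of other cells were higher at day 6 as well, with 10 of 11 myeloid, 12 of 12 thymocyte, 8 of 8 endothelial and 5 of 7 muscle genes rising, and their part in the members' levels was not tested. Other tuft cell genes rose for 3 of 7 in taste signalling, 4 of 10 among effectors and cytokine receptors, 4 of 7 regulators and 12 of 19 structural genes and adaptors, where 1 fell. Those with the smallest limma adjusted p were Lrmp (log2 difference 5.01), Ltc4s (4.90), Ovol3 (3.79), Ptprc (4.40), Pik3r5 (3.84) and Alox5ap (4.16). Ptprc, the CD45 gene, was at 20.9 to 77.8 CPM across all 6 day 6 libraries. At 6 weeks it was alike in the remaining and the other 16 libraries, at medians of 15.7 and 14.3 CPM. The part of leukocytes in the rise of these genes was not tested.

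In the Foxn1.EGFP positive skin cells the 10 genes had 19 UMIs among 1841009 in 3 libraries. Trpm5, Gnat3, Il25, Alox5, Plcb2 and Gnb3 had 0 in each. With a limit of 3 UMIs over the group, the mean of the remaining 6-week libraries was at least 1106-fold higher for Trpm5, 583-fold for Il25, 652-fold for Alox5 and 295-fold for Gnat3. Dclk1 was at 0, 4.68 and 10.3 CPM, Avil at 0, 3.12 and 2.94 CPM, and Pou2f3 at 1.92, 3.12 and 1.47 CPM, each 7 UMIs or fewer. The cells held Krt5 at 21836 to 28324 CPM and the root sheath keratin genes Krt71, at 97.9 to 300 CPM, and Krt27, at 23.0 to 437 CPM, with Krt8 at 1.56 to 11.8 CPM.

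Against all 20 libraries of 6-week TEC, limma called 3 of 10 members lower in HFC, where 19.2% of 13743 genes were lower. Of the 10, 9 reached 5 normalized UMIs in TEC libraries only, and Dclk1 in 1 HFC library as well. Member counts in this comparison are therefore a description and are not read against the shares of all genes. The median log2 difference of all genes was -0.78. Of the called genes 19.4% were higher in HFC. With median of ratios and TMM scaling 39.5% and 43.4% were, and the median of all genes was -0.45 and -0.37. The 3 were Alox5 (-4.84 ± 1.36, limma adjusted p = 0.00999), Gnb3 (-5.42 ± 1.67, limma adjusted p = 0.0185) and Avil (-4.69 ± 1.68, limma adjusted p = 0.0418). As Alox5 and Gnb3 were at 0 in HFC, their fitted differences depend on the pseudocount and are no bound. Avil missed the threshold under those scalings, at limma adjusted p values of 0.0580 and 0.0614. Trpm5, at -4.45, had a limma adjusted p of 0.0685, and Pou2f3, at -1.52, had 0.279. The 6-week libraries differ widely among themselves in these genes, and the spread enters the test. Without the 4 remaining libraries, likewise chosen with the data seen, the same 3 were called, Alox5 at -3.74, Gnb3 at -4.14 and Avil at -3.40, where 23.8% of genes were called in either direction.

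The calls in HFC rested on few libraries and on the processing. With a pseudocount of 5 limma called 0 members, and DESeq2 called 8. Leaving out HFC 1, HFC 2 or HFC 3 in turn put the limma adjusted p of Gnb3 at 0.0795, 0.0731 and 0.0774 and that of Avil at 0.187, 0.106 and 0.115. For Alox5 it was 0.0525 without HFC 1 and 0.0512 without HFC 3, and it was still called without HFC 2. Dclk1, with a limma adjusted p of 0.101, went to 0.0395 without mTEC4 196, and Trpm5 to 0.0455, 0.0485 and 0.0476 without mTEC1 195, mTEC1 196 or mTEC3 196, libraries in which it was at 0. Other tuft cell genes lower in HFC were 2 of 11 in taste signalling, where Itpr3 rose by 2.11, and 5 of 12 effectors and cytokine receptors. Also lower were 2 of 9 regulators, where 1 rose, and 9 of 20 structural genes and adaptors. Over all genes 19.2% of 13743 were lower, and these list counts are a description only. Krt18 (-8.36), Spib (-6.90), Lrmp (-6.02), Ltc4s (-5.61), Kctd12 (-4.41) and Il13ra1 (-2.07) had the smallest adjusted p in limma.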

How the data were processed

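Sorted thymic epithelial and skin cells were profiled by bulk MARS-seq in 33 libraries. The submitters' processing notes list mm10, HTSeq, STAR 2.4.2a, DESeq2, bcl2fastq and cutadapt, without roles. The authors deposited normalized signal values for 15273 genes, each library summing to 100, so a value is a percentage of UMIs. Whole UMIs were recovered in 33 of 33 libraries (within 0.01). The plan had assumed normalized UMIs, so percentages were scaled to the median total of 570253 UMIs before the planned test, and 0 columns lacked a sample.

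The members, gene lists and 6-week classes were chosen with earlier results of these data known. Tests used limma 3.58.1 (R 4.3.3; intensity trend, two-sided) on log2(value + 1), with Benjamini-Hochberg adjustment over all genes and a threshold of 0.05. Only genes that reached 5 normalized UMIs in 2 or more libraries of the fit entered. This scale understates changes of low genes. Embryonic and day 6 libraries shared 1 fit. Named genes were the 10 members, up to 6 called genes of the 4 tuft lists per comparison, the 3 highest paralogs of a member and the 3 genes most like each member, of which 1 is not reported here. List genes in the 6-week description, and those of the library titled mTEC4 195, were picked after their values were seen. Alternatives comprised pseudocounts 0.5 and 5, no filter and a mean of 10, median of ratios and TMM scaling, robust moderation, edgeR 4.0.16, DESeq2 1.42.0, a replicate block, class thresholds halved or doubled and leaving out each library. The fit was tested on simulated data. Tables and figures used Python 3.11.15.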

Additional observations from a re-analysis of the deposited data

Results flagged for a closer look

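In 59 groups of 4 to 10 libraries checked, 5 had 1 library far from the others by Dixon's criterion. The criterion flags about 1 in 20 groups of normally spread values. Several groups here hold counts near 0 at unequal depth, so that rate need not apply to them. Among embryonic libraries, Trpm5 was highest in the first E15 library, at 3.20 CPM against 0.884 to 1.15 CPM in the others. Alox5 was highest in the first E17 library, at 3.54 CPM against 0 to 0.577. Both values rest on 4 UMIs. Among the 4 remaining 6-week libraries, Avil was lowest in mTEC4 195, at 2637 CPM against 3298 to 3393, the library with the highest Gnat3. Sh2d6 was at 9.27 CPM in mTEC2 196 and at 0 in the other 3 Prss16-high libraries. That library had a summed level of the 10 genes of 122 CPM, the highest of its class, and also the most UMIs of its class, 970628. Plcb2 was at 74.3 CPM in mTEC3 191 against 0 to 10.1 CPM in the other Pth-high libraries.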

How the results depend on the processing

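The 7 members that rose in titled mTEC2 at day 6 did so in 10 alternatives that kept all libraries. Leaving out 1 day 6 library left log2 differences of 3.98 (Plcb2) or more where the gene could be tested. Sh2d6 and Il25 could not be tested without either titled mTEC2 library. Trpm5, Avil, Sh2d6, Il25 and Alox5 passed the filter only through these libraries, so the repeated calls are no independent support. At 6 weeks 9 members were separated under both other scalings and with the class thresholds halved. With the thresholds doubled 10 libraries, among them all Krt5-high ones, were left in the remaining class and 0 members were separated, as the setting implied. In HFC, 0 members were called with a pseudocount of 5 and 8 by DESeq2, against 3, and Avil was also lost under both scalings, robust moderation, edgeR and TEC as 5 title groups. From embryo to day 6, 1 member rose without the titled mTEC2 libraries, against 8. With all libraries, Il25 was lost in edgeR and with the filter on the mean. Pou2f3 was lost with both other pseudocounts, no filter and robust moderation. Leaving out 1 library gave 5 to 7 members for day 6 mTEC2, 0 to 0 for E17 against E15, 4 to 7 from embryo to day 6, 0 to 4 for HFC, 0 to 0 for the titles and 9 to 9 separated. A group left with 1 library was assumed to vary like the others, and fewer genes then pass the filter. Between E17 and E15 single libraries turned the sign of 5 uncalled members, over ranges of -0.99 to 0.44 for Avil, -0.21 to 0.80 for Sh2d6, -0.53 to 0.31 for Dclk1, -0.21 to 0.89 for Il25 and -0.21 to 1.39 for Alox5. The cause was not tested. Over all genes the same omissions gave 487 to 2679 calls against 905 for day 6 mTEC2, 5 to 16 against 88 for E17 against E15, 817 to 3039 against 1848 from embryo to day 6 and 1833 to 3844 against 3274 for HFC. For E17 against E15 edgeR called 171 and DESeq2 247 genes. With the replicate numbers as a block, limma called 556 genes and 7 members for day 6 mTEC2, 53 genes and 0 members for E17 against E15, 7 members from embryo to day 6 (Pou2f3, adjusted p = 0.0509, was lost) and 0 for the titles. The numbers share no stated source. Deviations of same-numbered libraries correlated at -0.30 to 0.72 at 6 weeks (24 of 40 pairs above 0.1), -0.00 to 0.04 at day 6 and 0.01 in embryos, so the block was not taken as a pairing. Depth limits any level under 1.73 to 30.4 CPM.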
